A study of Mus musculus with 12 samples.

Results

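The genes described here are 10 genes of astrocyte identity and reactivity, *Gfap*, *Vim*, *Serpina3n*, *Aqp4*, *Slc1a2*, *Slc1a3*, *Gja1*, *Aldh1l1*, *S100b* and *Sox9*. They were picked by gene symbol from the 36047 genes of an RNAseq table of mouse cortex, and all 10 were found and passed the filter on low values in every comparison. The cortices came from WT mice and from *Gde2*KO mice, global *Gde2*-/- knockouts that lack GDE2 (gene *Gdpd5*), a six-transmembrane enzyme that cleaves glycosylphosphatidylinositol anchors. The loss is not limited to astrocytes or to any other cell type. The 4 groups of 3 libraries each were 4-month WT, 4-month *Gde2*KO, 19-month WT and 19-month *Gde2*KO. No other allele and no treatment is given for any group, and male and female mice were used in the study. The comparison of *Gde2*KO with WT asks at each age how the loss of GDE2 relates to astrocyte transcripts, and the 19-month mice were other animals than the 4-month mice, so age and library set cannot be told apart. The labels do not say which libraries share a litter or cage. The column names of 19-month *Gde2*KO libraries B and C share a number that no other 19-month column has, and what it stands for is not given. P-values measure the spread between these libraries.

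Astrocytes are the glial cells that take up glutamate and potassium, pass metabolites to each other through gap junctions and wrap blood vessels with endfeet. After injury, in neurodegeneration and with age they become reactive, a state long recognized by more GFAP intermediate filament, with vimentin and secreted proteins such as the protease inhibitor encoded by *Serpina3n*. *Gfap* is unevenly expressed in the healthy brain, low in most of the cortical grey matter and high in the hippocampus, in white matter and below the pia, so its level in a piece of tissue also depends on which regions the piece holds.

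*Gfap* is known for a splice form with another protein ending, GFAP-delta, and transcripts with both endings were measured. *Gfap* (ENSMUSG00000020932) lies on the minus strand at chr11:102887336-102900912 of GRCm38. The main transcript, ENSMUST00000067444.9, and the GFAP-delta type transcript, ENSMUST00000077902.4, differ in their last exons.

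*Gfap* and *Serpina3n*, the members that varied most between libraries, are both known as targets of STAT3, the transcription factor behind much of astrocyte reactivity, so their promoters are shown. Each line runs from 250 bases before to 10 bases after the RefSeq start site on GRCm38.p6, *Gfap* at chr11:102897191-102897450 on the minus strand and *Serpina3n* at chr12:104406458-104406717 on the plus strand, with motif matches in capitals.
Gfap promoter: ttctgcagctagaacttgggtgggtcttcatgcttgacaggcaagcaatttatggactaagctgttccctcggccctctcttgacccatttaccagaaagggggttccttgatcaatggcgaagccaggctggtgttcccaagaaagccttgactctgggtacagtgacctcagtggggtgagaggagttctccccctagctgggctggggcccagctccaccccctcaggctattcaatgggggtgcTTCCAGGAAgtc
Serpina3n promoter: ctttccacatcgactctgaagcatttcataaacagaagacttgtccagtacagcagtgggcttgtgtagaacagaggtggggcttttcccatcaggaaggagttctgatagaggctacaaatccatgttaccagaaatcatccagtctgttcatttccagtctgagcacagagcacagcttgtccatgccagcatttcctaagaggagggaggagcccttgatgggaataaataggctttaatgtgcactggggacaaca
Windows of 8 of the 10 members were searched. *Aqp4* was left out of the search, and *Sox9* had no entry. The STAT palindrome TTCNNNGAA occurs in 7.33% of 32851 windows of the same length, and it was found in *Gfap* across the start site (positions -2 to 7, with no position 0, TTCCAGGAA) and in *Slc1a3* (positions -96 to -88, TTCCAAGAA). The AP-1 motif TGANTCA, in 7.03% of windows, was found in *Gja1* (positions -19 to -13). The SOX motif AACAAT, searched on both strands and present in 9.73% of windows, was in none of the 8 windows. *Serpina3n* held none of these letters in this window.

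The libraries were unequal in ways that bear on astrocyte genes. Estimated reads were 46434270 to 59728494 at 4 months and 3707928 to 44604721 at 19 months, where 19-month WT library A (6734475) and 19-month *Gde2*KO library A (3707928) were far shallower than the rest, and there 1 read was worth 4.66 and 8.29 normalized counts. Since the labels do not number the 19-month columns, the letters A, B and C name them. *Gdpd5* was lower in every *Gde2*KO library than in every WT library of its age, at 4 months 403 to 585 normalized counts against 684 to 1199 and at 19 months 441 to 560 against 952 to 1129. It passed the test at 19 months (log2 difference -1.11, limma adjusted p = 0.0111) and not at 4 months (-0.85, adjusted p = 0.463). The summed level of 10 hippocampal markers was 17201 and 17264 normalized counts in 4-month WT replicates 1 and 2 and 3101 to 5882 in the other 10 libraries. The 10 striatal markers summed to 9327 and 8060 in the same pair, against 38986 to 103460 in the other 4-month libraries and 11507 to 29390 at 19 months. None of the hippocampal markers was at 0 in a 4-month library, and 1 was at 0 in 19-month WT library A. Comparisons that use 4-month WT were therefore also fitted without replicates 1 and 2, an alternative chosen after seeing the data that left 1 library in the group, and its values are given beside the results that it changed.

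All 10 members were well above the filter in each library, from 305 normalized counts for *Serpina3n* in 4-month *Gde2*KO replicate 2 to 75595 for *Slc1a2* in 19-month *Gde2*KO library C. None of 25 further homeostatic astrocyte genes was at 0 in any library, so the markers of astrocytes were present throughout. In bulk tissue, fewer astrocytes and less RNA per astrocyte cannot be told apart.

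Compared per length, as normalized TPM, the glutamate transporters were the most abundant members. *Slc1a2*, which encodes GLT-1, the main glutamate transporter of the forebrain, was highest in all 4 groups, with 355 ± 29.7 TPM (SD, n = 3) in 4-month WT, 320 ± 64.5 in 4-month *Gde2*KO, 347 ± 7.44 in 19-month WT and 378 ± 6.67 in 19-month *Gde2*KO. *Slc1a3*, which encodes the related transporter GLAST, followed at 215 ± 10.6, 222 ± 19.7, 155 ± 12.2 and 170 ± 7.50 TPM in the same order of groups. *Sox9*, a nuclear transcription factor of astrocytes and their precursors, was lowest in every group, at 7.63 to 9.19 TPM on average. *Gfap* moved within this order. By rank of the mean it was 2 of 10 in 4-month WT, at 264 ± 241 TPM, 5 in 4-month *Gde2*KO at 91.1 ± 8.97, 4 in 19-month WT at 87.5 ± 4.50 and 3 in 19-month *Gde2*KO at 149 ± 78.5.

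Neighbours in the order often overlapped. In 4-month WT, *Gfap* overlapped *Slc1a2* and *Slc1a3*, and in the run *Gja1*, *S100b*, *Serpina3n*, *Vim* and *Aqp4* each gene overlapped its neighbours within the run. In 4-month *Gde2*KO *Aqp4*, *Aldh1l1* and *Vim* overlapped, at means of 44.3, 43.4 and 41.0 TPM, as did *Serpina3n* and *Sox9*. The order was clearest in 19-month WT, where the only neighbours that overlapped were *Serpina3n* and *Sox9*. In 19-month *Gde2*KO *Gfap* overlapped *Slc1a3* and *S100b*, and *Vim* overlapped *Aldh1l1*.

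**Figure D1:**
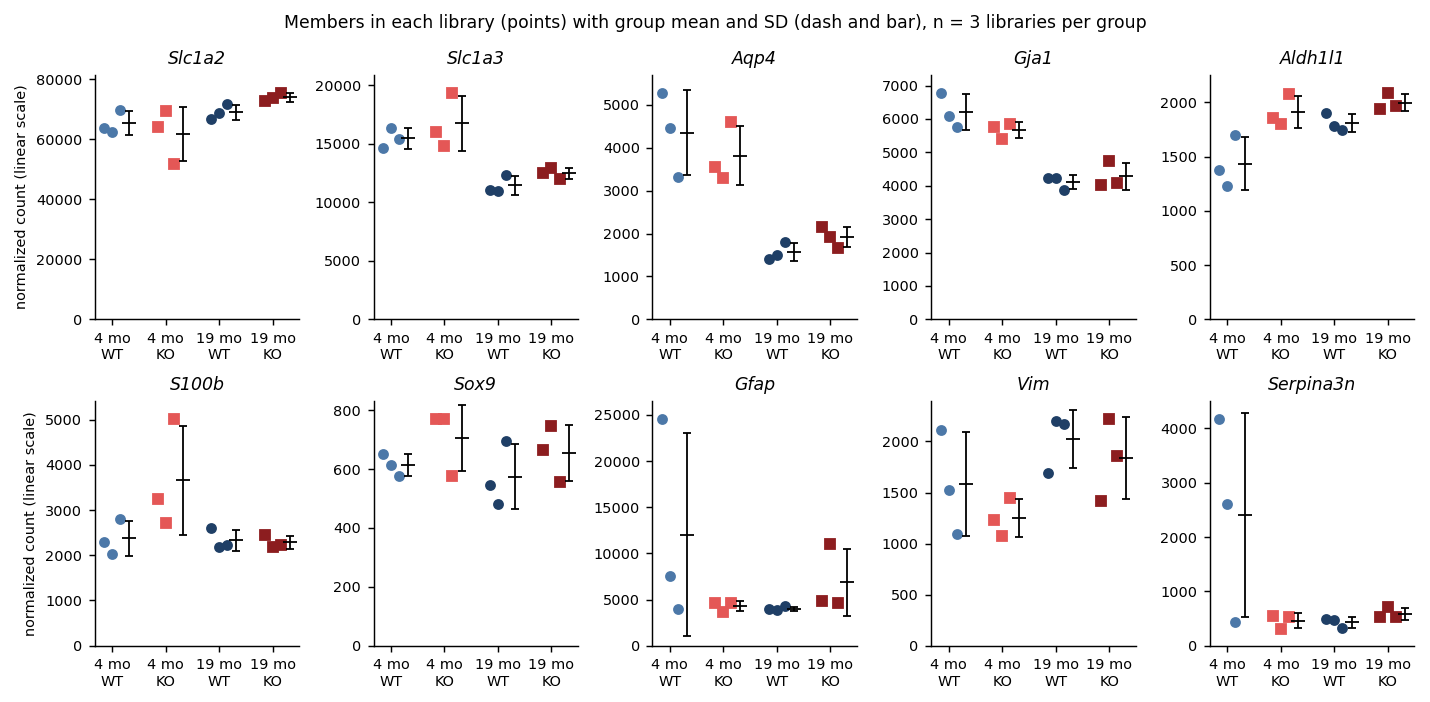
Normalized counts (linear axis from 0) of the 10 members in the 12 libraries, 1 panel per gene, with the group mean and SD at the right of each group of 3 points. *Gfap* reached 24555 in 1 of the 4-month WT libraries and 11037 in 1 of the 19-month *Gde2*KO libraries, and *Aqp4*, *Slc1a3* and *Gja1* lay lower in all 19-month than in all 4-month libraries of the same genotype.

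At 4 months none of the 10 members passed the test between *Gde2*KO and WT, and *Gfap* and *Serpina3n* were spread widely within WT. *Gfap*, the astrocyte intermediate filament, was at 24555, 7548 and 3933 normalized counts in WT replicates 1, 2 and 3 and at 4570, 3672 and 4628 in *Gde2*KO. The WT libraries spanned 6.24-fold and the *Gde2*KO libraries 1.26-fold, and the *Gde2*KO values lay between WT replicates 2 and 3 or below both. *Serpina3n*, a secreted serine protease inhibitor and one of the best marks of reactive astrocytes, had the same order, 4174, 2617 and 427 in WT against 548, 305 and 525 in *Gde2*KO. WT replicates 1 and 2 were high for both genes, and WT replicate 3 lay within the *Gde2*KO range. *Vim*, the vimentin filament that partners GFAP in reactive astrocytes and is also made by endothelial cells, was at 2113, 1528 and 1098 in WT and 1234, 1079 and 1448 in *Gde2*KO.

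The log2 differences were -1.91 for *Serpina3n* (95% interval -3.63 to -0.18, adjusted p = 0.463), -1.08 for *Gfap* (-2.38 to 0.23, adjusted p = 0.483) and -0.29 for *Vim* (-0.84 to 0.26, adjusted p = 0.577). The 2 libraries high in *Gfap* and *Serpina3n* were those high in hippocampal markers, and their part in these values was not tested. Without them, the log2 differences were 0.06 for *Serpina3n*, 0.12 for *Gfap* and 0.18 for *Vim*, with 1 WT library left. Without WT replicate 3 instead, *Serpina3n* (-2.89, adjusted p = 0.00151) and *Gfap* (-1.67, adjusted p = 0.0561) passed as lower in *Gde2*KO, and with library weights 2 members passed. The fit without replicate 3 kept only the WT libraries high in hippocampal markers, and it called 1058 higher and 452 lower of 18798 genes. Library weights called 1396 and 1024 of 19035, against 20 and 4 in the main fit.

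Of the homeostatic members, *Aldh1l1* and *S100b* differed most. *Aldh1l1*, a folate enzyme present in nearly all astrocytes, was at 1379, 1224 and 1700 in WT and at 1860, 1800 and 2079 in *Gde2*KO at 4 months. It was the only member without overlap between genotypes, higher in *Gde2*KO, and of all genes tested 11.1% were higher and 4.26% lower in all *Gde2*KO libraries. Its log2 difference of 0.43 (95% interval 0.07 to 0.78) did not pass (adjusted p = 0.463), and it was 0.17 without WT replicates 1 and 2, where *Aldh1l1* was lowest. *S100b*, a calcium-binding protein of astrocytes and some oligodendrocytes, was at 2294, 2029 and 2801 in WT and 3237, 2726 and 5018 in *Gde2*KO (log2 difference 0.59, adjusted p = 0.463). Without WT replicates 1 and 2 the difference was 0.34. *Gde2*KO replicate 3 was highest of all libraries for *S100b*, and among the 4-month libraries it also had the highest oligodendrocyte score (0.60, against 0.08 to 0.46), the highest microglia score (0.61, against -0.32 to 0.06) and the highest total of normalized TPM (1472300, against 1003570 to 1103970). All 10 oligodendrocyte markers had positive differences at 4 months (median 0.27), and their part in the *S100b* values was not tested.

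*Aqp4*, the water channel of astrocyte endfeet, was at 5280, 4461 and 3305 in 4-month WT and 3551, 3295 and 4597 in 4-month *Gde2*KO, and the groups overlapped widely. The log2 differences of *Aqp4*, *Slc1a2*, *Slc1a3*, *Sox9* and *Gja1*, which encodes the gap junction protein connexin 43, lay between -0.18 and 0.19 (adjusted p from 0.582 to 0.805). A gene was called where limma's adjusted p was under 0.1 and the natural-log fold above 0.5, or 0.72 on the log2 scale. By this rule 0 of 10 members and 0.126% of the 19035 genes tested were called, with 3 members and 10.6% of genes at an unadjusted p under 0.05. The members' median log2 difference was -0.11, and that of all genes was 0.11. Without WT replicates 1 and 2 the members' median was 0.14, with 8 of 10 positive in place of 4 and 0 members at an unadjusted p under 0.05. The all-gene median came to 0.01 with size factors recomputed as a median ratio, and that of the members to -0.21.

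**Figure D2:**
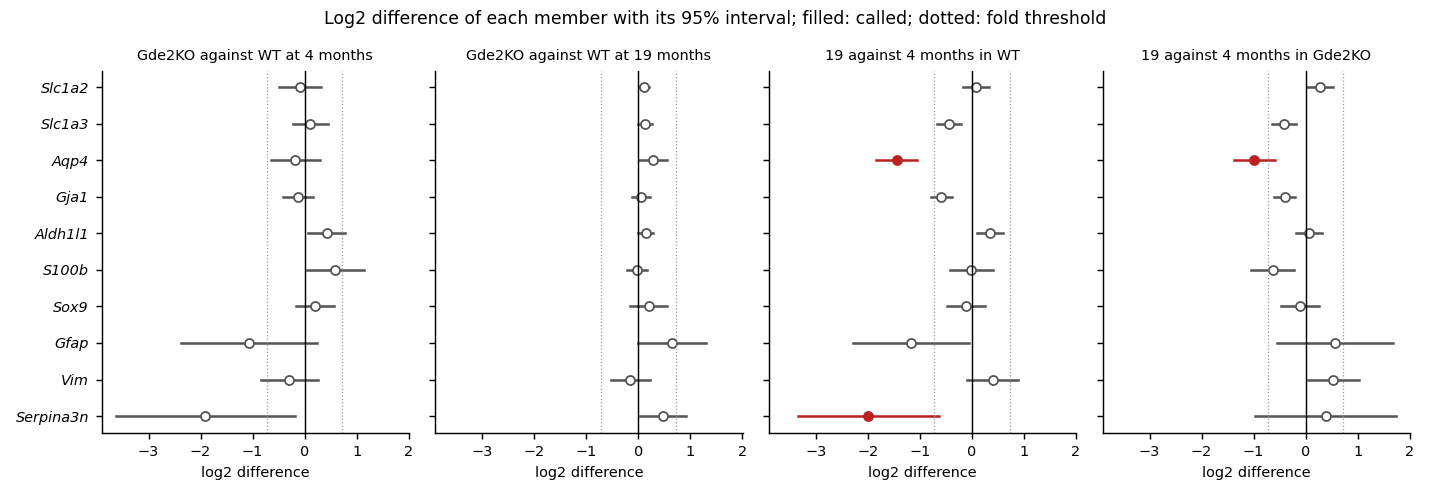
Log2 difference of each member (points, log2 of normalized count + 0.5) with its 95% interval in 4 comparisons, filled where called, with dotted lines at the fold threshold. *Aqp4* was called in both comparisons of age, *Serpina3n* in WT, and no member between genotypes.

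At 19 months *Gfap*, *Serpina3n*, *Aldh1l1* and *Slc1a2* were higher in every *Gde2*KO library than in every WT library, and again no member passed the test. *Gfap* was at 3923, 3838 and 4251 normalized counts in WT libraries A, B and C and at 4893, 11037 and 4610 in *Gde2*KO libraries A, B and C. WT was tight (4004 ± 218, SD, n = 3) and *Gde2*KO was spread (6846 ± 3632) by library B, while libraries A and C lay just above the WT range. The log2 difference was 0.65 (95% interval 0.003 to 1.30, adjusted p = 0.711). Without *Gde2*KO library B it was 0.25 (0.09 to 0.41, adjusted p = 0.448), with the groups still apart.

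*Serpina3n* was at 489, 479 and 316 in 19-month WT and at 522, 718 and 523 in *Gde2*KO (log2 difference 0.47, 95% interval 0.02 to 0.91, adjusted p = 0.711), and library B was again highest. *Aldh1l1* was at 1901, 1778 and 1747 against 1941, 2089 and 1964 (log2 difference 0.14, adjusted p = 0.711). *Slc1a2* was at 66680, 68847 and 71746 against 72720, 73901 and 75595 (0.10, adjusted p = 0.711). The last 2 differences were small, as was the spread within each group.

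The other members overlapped between genotypes at 19 months. *Aqp4* was at 1412, 1495 and 1805 in WT and 2156, 1926 and 1671 in *Gde2*KO (log2 difference 0.29, adjusted p = 0.711). *Vim* was at 1696, 2203 and 2166 in WT and 1418, 2221 and 1863 in *Gde2*KO (-0.15, adjusted p = 0.796), so *Gfap* and its filament partner differed in sign. *Slc1a3*, *Gja1*, *S100b* and *Sox9* had log2 differences from -0.03 to 0.20 (adjusted p from 0.712 to 0.938).

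In all, 4 of 10 members had every 19-month *Gde2*KO library above every WT library, against 5.85% of the 18583 genes tested, and none had every library below, against 8.32%. None was called, against 0.0969% of genes, and 4 members and 6.91% of genes had an unadjusted p under 0.05. In 1 fit of all 4 groups 0 members did. Differences were positive for 8 of 10 members, with a median of 0.13 against -0.02 for all genes. Markers of other tissue moved as well, and all 10 striatal and 9 of 10 hippocampal markers had positive differences (medians 0.80 and 0.53). All 10 oligodendrocyte markers were higher (median 0.26), while 0 of 5 blood genes (median -0.36) and 2 of 9 endothelial markers (median -0.21) were, and their part in the members' values was not tested. *Fibcd1*, a hippocampal marker, was the only gene on the marker lists that passed (log2 difference 1.44, adjusted p = 0.0111). In *Gde2*KO library B, with the high *Gfap*, the hippocampal score was -0.49. The libraries other than 4-month WT replicates 1 and 2 ranged from -1.18 to 0.22. Library B had scores of -1.10 for ependymal, -0.42 for oligodendrocyte, 0.06 for meningeal and 0.24 for microglia markers, the last the highest at 19 months. The part of tissue makeup in its *Gfap* level was not tested.

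**Figure D3:**
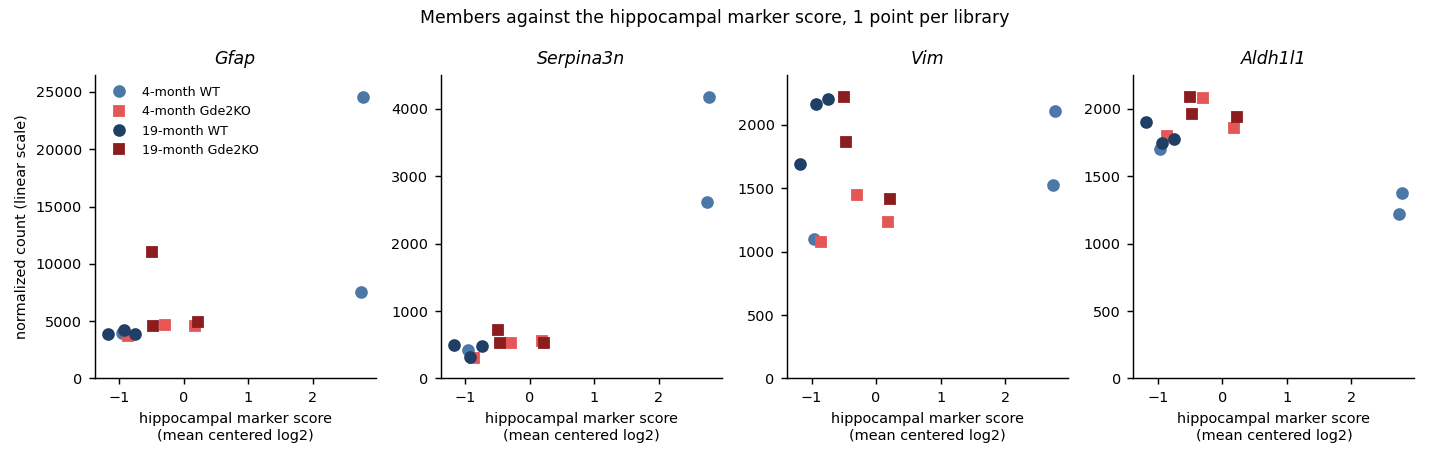
Normalized count (linear axis from 0) of *Gfap*, *Serpina3n*, *Vim* and *Aldh1l1* against the hippocampal marker score, the mean over 10 markers of log2 values centered on all 12 libraries, 1 point per library. Both 4-month WT libraries at 2.78 and 2.74 are highest in *Serpina3n* and lowest in *Aldh1l1*, and 19-month *Gde2*KO library B is high in *Gfap* at a score of -0.49.

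Between 4 and 19 months *Aqp4* fell in both genotypes. In WT it went from 5280, 4461 and 3305 to 1412, 1495 and 1805 normalized counts (log2 difference -1.45, 95% interval -1.84 to -1.06, adjusted p = 0.000525). In *Gde2*KO it went from 3551, 3295 and 4597 to 2156, 1926 and 1671 (-0.98, -1.37 to -0.59, adjusted p = 0.00631). The ages did not overlap in either genotype. *Aqp4* was also called without 4-month WT replicates 1 and 2 (-1.08, adjusted p = 0.0302, in WT) and without both shallow libraries (-1.38 in WT and -1.07 in *Gde2*KO).

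*Serpina3n* was the other member called between ages, in WT, from 4174, 2617 and 427 to 489, 479 and 316 (log2 difference -1.99, adjusted p = 0.0439). The groups overlapped, since 4-month WT replicate 3 lay within the 19-month range. Without replicates 1 and 2 the difference was -0.02 (adjusted p = 0.986). It was not called without 4-month WT replicate 1 (-1.33) or replicate 2 (-1.67), without 19-month WT library C (-1.79), without both shallow libraries (-2.10) or in a fit of WT alone (adjusted p = 0.106). In *Gde2*KO it went from 548, 305 and 525 to 522, 718 and 523 (0.39, adjusted p = 0.678).

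*Gfap* was not called with age. Its log2 difference was -1.17 in WT (adjusted p = 0.127) and 0.56 in *Gde2*KO (adjusted p = 0.444), and in WT it was 0.02 without 4-month WT replicates 1 and 2. Without 4-month WT replicate 3 it passed as lower at 19 months (-1.77, adjusted p = 0.0106), as it did with library weights. *Vim* had log2 differences of 0.40 in WT (adjusted p = 0.235) and 0.53 in *Gde2*KO (adjusted p = 0.107), and the ages overlapped in both. Without 4-month WT replicates 1 and 2 the value in WT was 0.87 (adjusted p = 0.121).

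*Slc1a3* and *Gja1* were lower at 19 months in every library of both genotypes but short of the fold threshold. *Slc1a3* went from 14609, 16341 and 15358 to 11023, 10946 and 12338 in WT (log2 difference -0.43, adjusted p = 0.0172) and from 16030, 14790 and 19346 to 12494, 12911 and 11948 in *Gde2*KO (-0.42, adjusted p = 0.0208). *Gja1* went from 6786, 6077 and 5756 to 4246, 4220 and 3873 in WT (-0.59, adjusted p = 0.00248) and from 5745, 5389 and 5836 to 4031, 4731 and 4069 in *Gde2*KO (-0.41, adjusted p = 0.0154). Without 4-month WT replicates 1 and 2 the differences in WT were of like size and no longer under the threshold, -0.43 for *Slc1a3* (adjusted p = 0.222) and -0.49 for *Gja1* (adjusted p = 0.101). *Slc1a2*, the partner transporter of *Slc1a3*, did not share this direction, with 0.08 in WT (adjusted p = 0.666) and 0.27 in *Gde2*KO (adjusted p = 0.112). In *Gde2*KO all 19-month libraries were above all 4-month libraries for *Slc1a2*.

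*S100b* and *Aldh1l1* each had an adjusted p under 0.1 between ages in 1 genotype, short of the fold threshold, and the interaction did not pass for either (adjusted p = 0.380 and 0.445). *S100b* went from 3237, 2726 and 5018 to 2447, 2186 and 2230 in *Gde2*KO (log2 difference -0.63, adjusted p = 0.0366), and the difference in WT was -0.01 (adjusted p = 0.967). Without 4-month *Gde2*KO replicate 2 it was called in *Gde2*KO (-0.82, adjusted p = 0.00762). *Aldh1l1* went from 1379, 1224 and 1700 to 1901, 1778 and 1747 in WT (0.35, adjusted p = 0.0562), and the difference in *Gde2*KO was 0.06 (adjusted p = 0.711). Without 4-month WT replicates 1 and 2 the value for *Aldh1l1* in WT was 0.09 (adjusted p = 0.822). *Sox9* was at 480 to 695 at 19 months in WT and 575 to 653 at 4 months (-0.11, adjusted p = 0.663).

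Over the 10 members, 2 were called with age in WT, both lower at 19 months, against 13.7% of the 18731 genes tested, and 1 was called in *Gde2*KO, against 11.9%. At an adjusted p under 0.1 with no fold threshold, 5 members passed in WT (28.2% of all genes) and 4 in *Gde2*KO (32.3%). In WT 3 members lay below in every 19-month library and 1 above, against 26.7% and 19.3% of genes, and in *Gde2*KO 4 lay below and 1 above, against 29.9% and 11.3%. The median log2 difference was -0.27 in WT (-0.02 without 4-month WT replicates 1 and 2), where that of all genes was -0.07, and -0.02 in *Gde2*KO, where that of all genes was -0.21. With median-ratio size factors the all-gene median in *Gde2*KO was -0.04 and that of the members 0.15. Oligodendrocyte markers fell over the same ages, 4 of 10 in WT and 5 of 10 in *Gde2*KO, with summed levels of 119682 to 153718 in 4-month WT, 149220 to 167229 in 4-month *Gde2*KO, 85660 to 113616 in 19-month WT and 100501 to 130370 in 19-month *Gde2*KO. Their part in the members' values was not tested.

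The effect of genotype was then compared between ages in 1 fit of all 12 libraries. None of the 10 members passed at an adjusted p under 0.1, against 0.048% of 18731 genes, and 3 members and 12.9% of genes had an unadjusted p under 0.05. The values farthest from 0 were 2.38 for *Serpina3n* (95% interval 0.47 to 4.28, adjusted p = 0.368), 1.73 for *Gfap* (0.16 to 3.30, adjusted p = 0.373) and -0.62 for *S100b* (-1.20 to -0.03, adjusted p = 0.380). Without 4-month WT replicates 1 and 2 the first 2 values were 0.41 and 0.54, and 0 members had an unadjusted p under 0.05. Without 4-month WT replicate 3 *Serpina3n* and *Gfap* passed (3.36 and 2.33), and with library weights 5 members did. These settings passed many more genes of all kinds. Without replicate 3, 677 positive and 1352 negative of 18522 genes passed. With library weights 1915 and 4545 of 18731 did, against 2 and 7 in the main fit.

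The members did not vary as a single group. After each group's mean was taken out, *Gfap* varied over the 12 libraries with *Vim* (Pearson r = 0.85), *Gja1* (0.84) and *Serpina3n* (0.81), less with *Aqp4* (0.65) and *Sox9* (0.37), and had r of 0.02 with *Slc1a3*, -0.15 with *S100b*, -0.25 with *Aldh1l1* and -0.29 with *Slc1a2*. *Aldh1l1* and *S100b* formed another pair (0.74), and *Slc1a2* and *Slc1a3* had r of -0.71. Of all libraries, 4-month *Gde2*KO replicate 3 had the least *Slc1a2* (51737 normalized counts) and the most *Slc1a3* (19346). Its part in the r of -0.71 was not tested. The correlations are descriptions over libraries that differ in depth and tissue makeup, and 4-month WT replicate 1 weighs on them. Without it, *Gfap* had r = 0.74 with *Vim*, 0.79 with *Gja1*, 0.68 with *Serpina3n*, 0.45 with *Aqp4* and 0.45 with *Slc1a3*. These values still include 4-month WT replicate 2, also high in hippocampal markers (score 2.74).

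Of the 18731 genes tested in all libraries, the 5 most like *Gfap* by the same measure were *Slc14a1* (r = 0.95), which encodes a urea transporter found in astrocytes, *Lpl* (0.94), the lipoprotein lipase, *Cep131* (0.94), a centrosome protein, *Atp4a* (0.92), a gastric proton pump subunit at only 12.5 to 34.6 normalized counts, and *Xpnpep1* (0.91), an aminopeptidase. *Slc14a1* followed *Gfap* closely, with 336, 223 and 125 normalized counts in 4-month WT, 142, 127 and 156 in 4-month *Gde2*KO, 81.5, 93.6 and 104 in 19-month WT and 124, 200 and 116 in 19-month *Gde2*KO. Its r was 0.95 without 4-month WT replicate 1 as well, and *Xpnpep1* went to 0.75.

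Other astrocyte genes put these values in context. On 7 lists of homeostatic genes, gliogenic factors, the gp130 and STAT3 pathway, intermediate filaments and genes of reactive astrocytes, no gene was called between genotypes at 4 months or at 19 months. The 25 homeostatic genes had a median log2 difference of 0.07 at 4 months (all genes 0.11) and 0.04 at 19 months (all genes -0.02), and none was called in any comparison. *Glul*, the glutamine synthetase of astrocytes, was at 37015 ± 8036 in 4-month WT, 45680 ± 1747 in 4-month *Gde2*KO, 48291 ± 1179 in 19-month WT and 49672 ± 2187 in 19-month *Gde2*KO. *Apoe*, the lipid carrier, was at 43401 ± 1044, 53314 ± 11317, 38365 ± 1108 and 43936 ± 6522 in the same order. Of the 10 genes common to most kinds of reactive astrocyte, 6 were higher in *Gde2*KO at 4 months (median 0.16) and 0 at 19 months (median -0.41), where 0 had an unadjusted p under 0.05. At 19 months the list's score was -0.78 in the shallow *Gde2*KO library A, 0.82 and 0.76 in *Gde2*KO libraries B and C and 0.45 to 1.02 in WT, and without both shallow libraries the median was -0.02. *Gfap* and *Serpina3n* themselves had positive values at 19 months.

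Between ages some genes of reactive astrocytes rose in both genotypes. In WT 4 of 10 pan-reactive genes rose and none fell (median 0.91), and in *Gde2*KO 3 rose and none fell (median 0.43), against 13.7% and 11.9% of all genes called in either direction. *Lcn2*, the secreted iron-siderophore binder lipocalin 2, also made by other cells in inflammation, went in WT from 4.33, 4.23 and 7.76 to 401, 431 and 51.2 (log2 difference 5.18, adjusted p = 0.00385), and in *Gde2*KO from 11.3, 8.94 and 8.97 to 16.6, 84.3 and 229 (2.77, adjusted p = 0.0468). The libraries at 19 months differed several-fold in *Lcn2*, and the 16.6 of *Gde2*KO library A, where 1 read is worth 8.29, stands for few reads. *Osmr*, the oncostatin M receptor, rose from 141 ± 19.3 to 275 ± 33.7 in WT (0.97, adjusted p = 0.0164) and from 136 ± 11.7 to 237 ± 77.0 in *Gde2*KO (0.75, adjusted p = 0.0413). *Timp1*, a metalloprotease inhibitor, rose by 0.76 in WT (adjusted p = 0.0712) and 0.74 in *Gde2*KO (adjusted p = 0.0722). *Hspb1*, a small heat shock protein, rose in WT by 0.85 (adjusted p = 0.0376).

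The intermediate filament list moved in the same direction, with 3 of 5 genes higher at 19 months in WT and 2 of 5 in *Gde2*KO. *Des*, the desmin of muscle and vessel mural cells, rose from 38.5 ± 13.2 to 158 ± 35.7 in WT (log2 difference 2.05, adjusted p = 0.000933) and from 47.2 ± 8.56 to 203 ± 37.3 in *Gde2*KO (2.09, adjusted p = 0.00133). *Plec*, which links filaments to other parts of the cell, rose by 0.82 in WT (adjusted p = 0.00436) and 0.88 in *Gde2*KO (adjusted p = 0.0043). *Lmna*, a lamin of the nuclear envelope, rose by 0.77 in WT (adjusted p = 0.00709).

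Genes first tied to neuroinflammatory reactive astrocytes were mixed. In WT *H2-D1* (log2 difference 1.11, adjusted p = 0.00822) and *H2-T23* (1.33, adjusted p = 0.0221), which encode MHC class I proteins, rose and *Amigo2* (-1.13, adjusted p = 0.0716), an adhesion protein, fell, and 0 of 12 were called in *Gde2*KO. Of the genes tied to ischemic reactive astrocytes, *Emp1*, a membrane protein, rose in both (1.71, adjusted p = 0.000497, and 1.58, adjusted p = 0.00124) and *B3gnt5*, a glycolipid enzyme, fell in both (-1.40, adjusted p = 0.0245, and -1.89, adjusted p = 0.009). In WT *Cd14*, a pattern receptor also on microglia, rose (1.46, adjusted p = 0.0288) and *Cd109*, a GPI-anchored protein, fell (-1.59, adjusted p = 0.0688).

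On the gp130 and STAT3 list, *Socs3*, the feedback inhibitor that STAT3 induces, rose in WT from 41.8, 40.5 and 123 to 200.3, 301 and 199.7 (log2 difference 1.94, adjusted p = 0.00913), and *Osmr* rose in both genotypes. *Socs3* was lowest in 4-month WT replicates 1 and 2, the libraries in which *Serpina3n* was highest, and a relation between both genes was not tested. Of the gliogenic factors, *Zbtb20* fell in WT (-2.10, adjusted p = 0.00578), and *Id3* (-0.89, adjusted p = 0.0288) and *Hes5* (-0.76, adjusted p = 0.0588) fell in *Gde2*KO. Without 4-month WT replicates 1 and 2, which left 1 library of that group, no pan-reactive, neuroinflammatory, gliogenic or gp130 and STAT3 gene was called in WT, *Des* was the filament gene still called and *Emp1* and *Ptgs2* the ischemic genes, with *Slc4a4* down among the homeostatic genes.

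**Figure D4:**
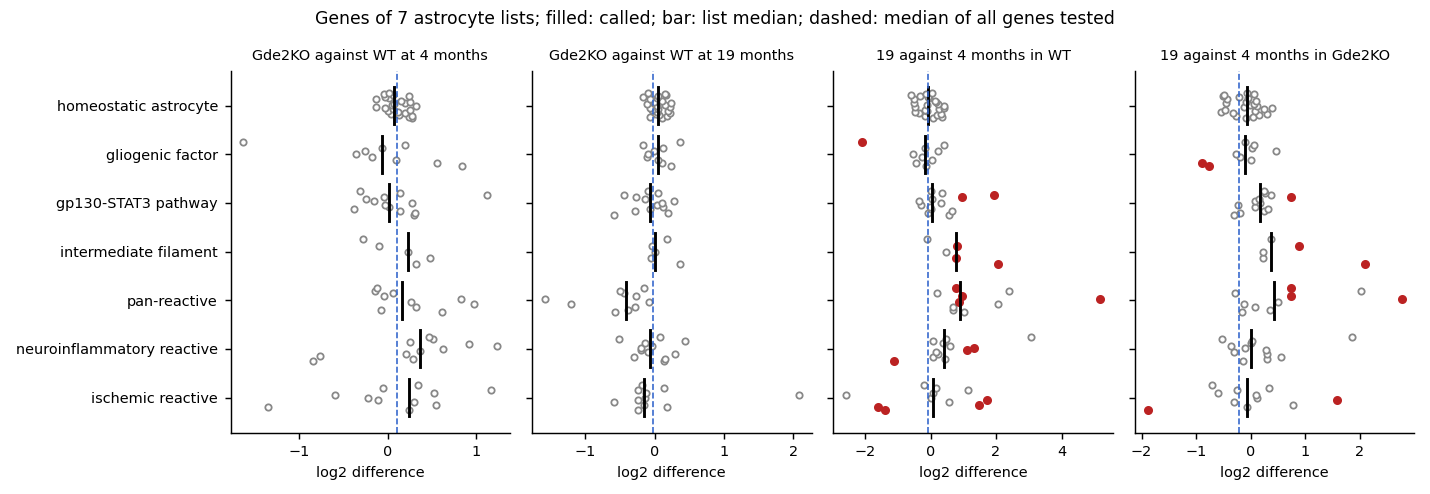
Log2 difference (log2 of normalized count + 0.5) of every tested gene on 7 astrocyte lists in 4 comparisons, filled where called, with a bar at each list's median and a dashed line at the median of all genes tested. No gene is filled between genotypes, and the pan-reactive and filament lists lie to the right of the all-gene median between ages.

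Genes of other cells and regions bear on a bulk measurement. Of 95 markers on 12 lists, of which 94 could be tested at 19 months, for neurons, microglia, oligodendrocytes and their precursors, endothelial, mural, ependymal, choroid plexus and meningeal cells, hippocampus, striatum and blood, 0 were called at 4 months and 1, *Fibcd1*, at 19 months. Between ages 8 were called higher and 18 lower in WT, and 3 higher and 14 lower in *Gde2*KO. Of all genes tested, 13.7% were called in either direction in WT and 11.9% in *Gde2*KO. In WT 7 of the 10 hippocampal markers were lower at 19 months and 4 of the 5 blood genes higher. The hippocampal markers summed to 17201 and 17264 normalized counts in 4-month WT replicates 1 and 2. The sum was 3988 in 4-month WT replicate 3 and 3101 to 3595 in 19-month WT.

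The main *Gfap* transcript made up nearly all of *Gfap* in every library, and the share of the GFAP-delta type transcript overlapped between groups in all 4 comparisons. The share of the latter in the gene's TPM was 6.68 ± 1.17% (SD, n = 3) in 4-month WT, 7.54 ± 1.52% in 4-month *Gde2*KO, 7.75 ± 2.56% in 19-month WT and 6.06 ± 0.45% in 19-month *Gde2*KO. The lowest share was 5.33% and the highest 10.7%, and the main transcript took 89.3% to 94.4%. The share of the GFAP-delta type transcript was lowest, 5.33% and 5.68%, in both libraries with the most *Gfap*, 4-month WT replicate 1 and 19-month *Gde2*KO library B, and highest in the shallow 19-month WT library A. In normalized counts the GFAP-delta type transcript averaged 707 in 4-month WT, 320 in 4-month *Gde2*KO, 305 in 19-month WT and 400 in 19-month *Gde2*KO. A further transcript, ENSMUST00000127909.1, stayed below a mean of 1%.

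The differences in share between groups were -1.69 to 1.07 percentage points for the GFAP-delta type transcript (two-sided exact permutation p from 0.2 to 0.8, adjusted over 8 tests from 0.6 to 0.8). For the main transcript the values were -1.06 to 2.02 points. At 19 months its share was 93.5% to 94.0% in *Gde2*KO and 89.3% to 93.2% in WT, so the genotypes did not overlap (exact permutation p = 0.1, adjusted p = 0.6). With 3 libraries against 3 the smallest p this test can give is 0.1, so it could not pass. limma's diffSplice over all genes also called *Gfap* in no comparison (adjusted p from 0.87 to 1), nor any other member with enough transcripts. Genes called for transcript use were 1.13% between genotypes at 4 months, 0.171% at 19 months, 2.71% between ages in WT and 3.8% in *Gde2*KO.

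*Vim* was unlike *Gfap* in this respect. The longest of its spliced transcripts (ENSMUST00000028062.7, 9 exons, 2193 bases) took 36.6% to 47.5% of *Vim* TPM in 4-month WT, 38.1% to 54.8% in 4-month *Gde2*KO, 82.1% to 100% in 19-month WT and 84.4% to 97.0% in 19-month *Gde2*KO. The ages did not overlap. A shorter coding transcript (ENSMUST00000193675.1, 8 exons, 1777 bases) took 39.2% to 42.2% and 34.9% to 39.2% at 4 months and up to 10.6% and 14.3% at 19 months. The difference between ages in the first share was 49.0 points in WT and 42.7 in *Gde2*KO. diffSplice did not call *Vim* as a gene over its transcripts (adjusted p = 0.332 and 0.259). Its adjusted p for the first transcript alone was 0.296 and 0.234. At 19 months the shorter transcript was at or near 0 in both shallow libraries, and the part of depth in these shares was not tested. For *Aldh1l1* the share of a short non-coding transcript, ENSMUST00000127199.1, was 4.90 ± 3.92% in 4-month WT and 17.1 ± 1.22% in 4-month *Gde2*KO on 5.50 and 25.3 normalized counts. diffSplice did not call *Aldh1l1* as a gene (adjusted p = 0.564), and its adjusted p for this transcript alone was 0.302.

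**Figure D5:**
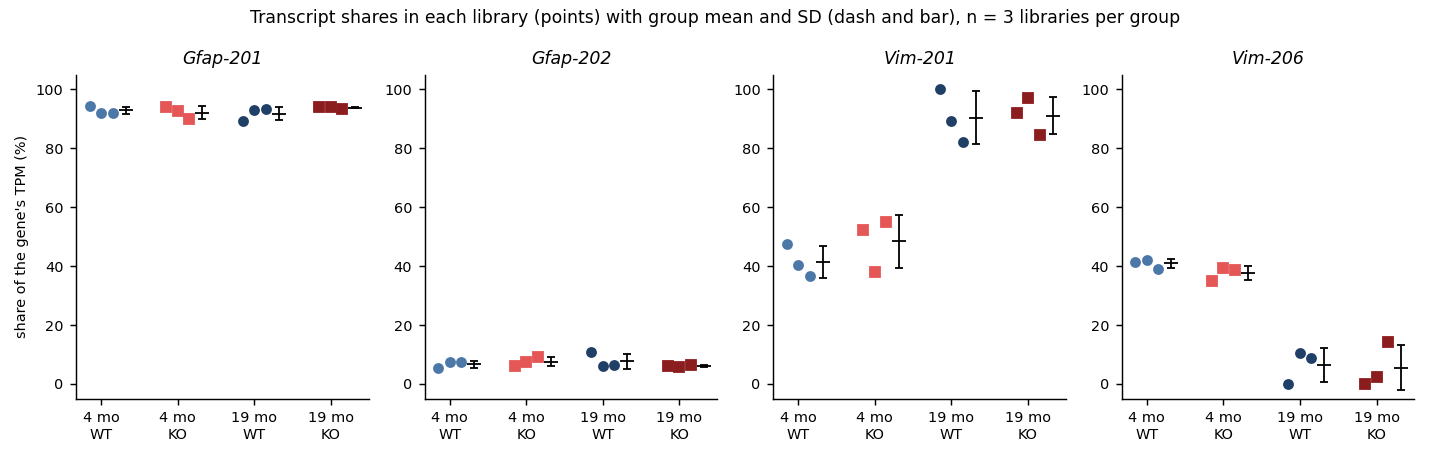
Share of the gene's TPM (percent) of both main transcripts of *Gfap* and of *Vim* in the 12 libraries, with the group mean and SD at the right of each group of 3 points. The GFAP-delta type transcript stays between 5.33% and 10.7%, while the longer *Vim* transcript reaches at most 54.8% in the 4-month libraries and at least 82.1% in the 19-month libraries.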

How the data were processed

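Cortical RNA of 12 mice was sequenced as paired-end poly(A) libraries. The authors quantified transcripts with kallisto on the GRCm38 transcriptome and normalized them with sleuth, and deposited transcript tables of normalized counts (signal: estimated counts divided by a library factor) and of normalized TPM (signal, likewise divided). Transcripts were summed per gene. Only 46.7% to 62.9% of genes gave whole reads within 0.01, so no count model was used. limma 3.58.1 (R 4.3.3) was fitted with a trend to log2(value + 0.5), so that fold changes of low genes are understated, over genes with at least 5 normalized counts in 47% of the libraries fitted: each age alone for genotype, all 12 libraries for age and the interaction. P-values were adjusted by Benjamini-Hochberg over all genes tested, and intervals are 95%. Interactions were called at an adjusted p under 0.1. Transcript use was tested with diffSplice and, for *Gfap* shares, two-sided exact permutation. Named genes were the members, called genes of 7 astrocyte lists, the highest homeostatic genes, and the 5 genes most like *Gfap*. The members and lists were chosen with earlier results of these data known. Alternatives changed the scaling, filter, pseudocount, library weights and libraries used. Scripts were tested on simulated data. Promoters are from RefSeq on GRCm38.p6 and gene positions from GENCODE vM21. The sequences of the *Gfap* transcripts are not reported here.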

Additional observations from a re-analysis of the deposited data

How the results depend on the processing

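Of 146 alternatives to the counts of called members and the *Gfap* transcript share, 135 were counted as the same as the main result. Counts of called members were the same where they were equal or close, and shares where the difference moved by less than its pooled SD. The sign of the share difference was not part of this rule. Of 1110 alternatives to single members, most of them of uncalled values, 46 reversed the sign. None of the 46 was of a value called in the main fit. Between ages, *Aqp4* kept its call in all 25 alternatives in each genotype. *Serpina3n* in WT lost its call in 6 of 25. At 4 months 0 members were called, 2 with library weights and 0 to 2 with a library left out. Between ages in WT 2 were called, and 1 without the shallow libraries, without 4-month WT replicates 1 and 2, or with WT fitted alone, and 1 to 3 with a library left out. In *Gde2*KO 1 was called, and 1 to 2 with a library left out. For the interaction 0 passed, 5 with library weights and 0 to 2 with a library left out. The cause of these changes was not tested. Leaving out 1 library of a group assumes the rest vary like the other groups.

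Signs of uncalled values turned as follows. Without 4-month WT replicates 1 and 2, *Gfap* was at 0.12, *Vim* 0.18, *Serpina3n* 0.058 and *Aqp4* 0.19 between genotypes at 4 months, *Gfap* 0.024 and *Slc1a2* -0.019 between ages in WT, and *Vim* -0.34 and *Sox9* -0.084 in the interaction. With library weights, *Slc1a2* was 0.0091 at 4 months, *S100b* 0.090 between ages in WT and *Sox9* -0.077 in the interaction. With upper-quartile scaling *Slc1a3* was -0.015 at 4 months, *S100b* 0.030 in WT and *Sox9* 0.075 in *Gde2*KO between ages, and with median-ratio scaling *S100b* was 0.029 and *Sox9* 0.060. On TPM, *Slc1a2* was -0.031 in WT and *Aldh1l1* -0.056 in *Gde2*KO. Without the shallow libraries, *S100b* was 0.0019 at 19 months, and *Slc1a3* -0.012 and *Sox9* -0.035 in the interaction. With a library left out, *Slc1a2* ranged from -0.18 to 0.031 and *Slc1a3* from -0.0021 to 0.19 at 4 months, *Vim* from -0.30 to 0.018, *Gja1* from -0.021 to 0.094 and *S100b* from -0.078 to 0.051 at 19 months, *S100b* from -0.12 to 0.11 and *Sox9* from -0.26 to 0.0061 between ages in WT, *Sox9* from -0.24 to 0.0069 in *Gde2*KO, and *Vim* from -0.10 to 0.37, *Slc1a3* from -0.067 to 0.13 and *Sox9* from -0.13 to 0.15 in the interaction.

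Median-ratio scaling moved the calls between ages in *Gde2*KO over all genes from 478 higher and 1746 lower to 732 and 939, and its members stayed at 1 called. Over all genes, library weights called 1396 higher and 1024 lower at 4 months, where the main counts sum to 24. For the interaction, library weights passed 1915 positive and 4545 negative genes, against 2 and 7 in the main fit. The 4-month replicate numbers did not pair the samples (correlations of deviations 0.06, 0.0071 and -0.048), and the fit with a replicate block called 21 genes and 0 members. No paired analysis was possible at 19 months because the columns carry no replicate numbers.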

Other observations

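Some astrocyte-related genes outside the 10 members set 4-month WT replicates 1 and 2 apart from the other libraries, as *Gfap* and *Serpina3n* did. *Zbtb20*, a transcription factor of astrocytes that is also high in hippocampal neurons, was at 16194 and 13132 normalized counts in this pair, 4229 in 4-month WT replicate 3, 3566, 4084 and 2084 in 4-month *Gde2*KO, 2499, 2017 and 2278 in 19-month WT and 3331, 2625 and 2829 in 19-month *Gde2*KO. *Amigo2* was at 889 and 725 in the pair and at 199 to 378 in the other 10 libraries, and *Cd109* at 219.9 and 239 against 32.6 to 57.0. *Glul* went the other way, at 29537 and 35997 in the pair and 45512 in replicate 3. The split was noticed in the data, and its part in these values was not tested.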
